A study of Mus musculus with 28 samples.

Results

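Genes of 8 families of developmental transcription factors were examined in mouse primordial germ cells (PGCs, which later form sperm or eggs) and gonadal somatic cells at E13.5. Members were chosen by symbol alone: the stem of the Tbx, Pax, Lhx, Dlx, Irx, Nkx or Six-family genes followed only by digits and hyphens, or Fox followed by 1 letter from a to s and digits. The rule found 104 of 22138 genes in the RNA and promoter tables, namely 42 Fox, 14 Nkx, 13 Tbx, 9 Pax, 8 Lhx, 6 Dlx, 6 Irx and 6 Six-family genes. The study deleted Setdb1, which encodes an H3K9 methyltransferase, and measured RNA, H3K9me3 and H3K27me3. Cells were sorted by flow cytometry into SSEA1+ PGCs and SSEA1- soma. In each sex the RNA libraries were 2 KO (Setdb1 delta/-), 2 Het1 (delta/+), 2 Het2 (flox/-) and 1 WT (flox/+). Het1 and Het2 were pooled as Het (n = 4 per sex), and both lack 1 working Setdb1 allele. A male PGC and a male soma RNA library came from wild-type C57BL/6 embryos. H3K9me3 and H3K27me3 each had 1 library per sex from KO and from Het PGCs, the latter flox/-, and H3K9me3 had 1 library from C57BL/6 male soma. The driver of the deletion is not given in the sources used here. Whether replicates came from separate embryos is not stated either, so p-values measure only the spread between these libraries, which may be technical.

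T-box, paired-box, LIM-homeodomain, Dlx, Irx, Nkx, Six-type and forkhead proteins bind DNA through family-specific domains and set cell identity during organ formation. Many of their genes have CpG-rich promoters that Polycomb repressive complex 2 marks with H3K27me3 where the gene is off. H3K9me3, the mark to which SETDB1 contributes, is best known at retrotransposons and other repeats. A few members have known gonadal or germline roles, such as Lhx9 in gonad formation, Foxl2 in granulosa cells and Foxo1 and Foxo3 in germ cells.

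Promoter windows from RefSeq (GRCm38.p6, most of each lying before the start) were found for 72 of the 104 members, as 88 windows of 300 bases. The 6 printed here, 5′ to 3′ with CpG dinucleotides in capitals, belong to members on which the results turn. Nkx2-3 and Pax5 had the second and the fourth highest H3K27me3. Foxj3 had the lowest. Foxp4 and Six5 had more RNA in the KO than in the Het libraries, and less H3K27me3 with 1 library per sex and genotype. Lower H3K27me3 in KO in both sexes was common, at 37 of 104 members (35.6%) and 38.3% of all promoters. At Foxp4 and Six5 the mark was below 1 RPKM in every Het and KO library. Whether RNA and mark are linked there was not tested. By limma the RNA difference passed for Foxp4 in females and over both sexes, and for Six5 in none of the KO contrasts. Tbx19 carried the highest Het H3K9me3 in males.
Nkx2-3 (chr19:43612075-43612374, plus strand): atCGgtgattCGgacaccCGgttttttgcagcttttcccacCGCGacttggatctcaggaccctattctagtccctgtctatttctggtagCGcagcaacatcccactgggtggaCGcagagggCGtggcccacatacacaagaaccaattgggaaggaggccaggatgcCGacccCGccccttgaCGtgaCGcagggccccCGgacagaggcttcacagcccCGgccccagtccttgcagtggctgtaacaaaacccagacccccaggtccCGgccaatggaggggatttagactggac
Pax5 (chr4:44710645-44710944, minus strand): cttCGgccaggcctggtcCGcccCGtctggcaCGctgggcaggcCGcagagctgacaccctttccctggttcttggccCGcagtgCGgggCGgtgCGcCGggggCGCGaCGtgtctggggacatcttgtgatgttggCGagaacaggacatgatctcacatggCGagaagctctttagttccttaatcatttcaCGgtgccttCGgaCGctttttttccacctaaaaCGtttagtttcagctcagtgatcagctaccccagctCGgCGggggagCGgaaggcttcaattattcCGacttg
Foxj3 (chr4:119539411-119539710, plus strand): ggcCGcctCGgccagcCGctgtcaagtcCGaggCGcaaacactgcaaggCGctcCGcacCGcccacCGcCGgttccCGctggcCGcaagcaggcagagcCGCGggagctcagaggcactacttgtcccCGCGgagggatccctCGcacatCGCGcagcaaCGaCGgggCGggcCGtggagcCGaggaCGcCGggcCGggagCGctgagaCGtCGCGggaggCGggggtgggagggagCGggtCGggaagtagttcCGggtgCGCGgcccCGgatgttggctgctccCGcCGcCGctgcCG
Foxp4 (chr17:47924583-47924882, minus strand): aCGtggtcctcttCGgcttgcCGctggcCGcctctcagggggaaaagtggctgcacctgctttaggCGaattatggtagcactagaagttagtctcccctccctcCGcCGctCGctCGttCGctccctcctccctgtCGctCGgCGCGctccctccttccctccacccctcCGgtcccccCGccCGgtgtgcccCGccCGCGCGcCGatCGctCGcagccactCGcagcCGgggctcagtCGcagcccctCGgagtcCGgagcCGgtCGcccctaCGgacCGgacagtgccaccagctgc
Six5 (chr7:19094294-19094593, plus strand): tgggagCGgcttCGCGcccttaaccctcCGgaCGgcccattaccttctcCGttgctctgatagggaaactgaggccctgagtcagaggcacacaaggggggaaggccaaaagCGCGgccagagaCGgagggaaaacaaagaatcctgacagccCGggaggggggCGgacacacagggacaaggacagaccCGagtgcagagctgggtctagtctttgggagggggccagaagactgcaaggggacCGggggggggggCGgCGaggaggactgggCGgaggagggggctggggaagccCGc
Tbx19 (chr1:165160724-165161023, minus strand): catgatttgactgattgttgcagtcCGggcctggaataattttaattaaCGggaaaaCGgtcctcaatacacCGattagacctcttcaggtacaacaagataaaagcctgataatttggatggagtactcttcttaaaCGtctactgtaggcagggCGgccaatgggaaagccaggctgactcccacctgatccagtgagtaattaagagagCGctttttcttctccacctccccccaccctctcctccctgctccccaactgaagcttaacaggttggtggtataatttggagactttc
The Foxj3 window held 42 CpGs and the Foxp4 window 33, against 23 in Pax5, 17 in Six5, 15 in Nkx2-3 and 7 in Tbx19. The most and the least H3K27me3-marked of these promoters were both GC-rich, with 60% G+C in Nkx2-3 and 75% in Foxj3. Across the 88 windows the median was 17 CpGs and 61.3% G+C, against 7 CpGs and 52.7% over all 32851 windows of the table. A CpG-rich window (G+C of 50% or more and an observed-to-expected CpG ratio of 0.6 or more) was found for 60.2% of member windows and 33.5% of all windows. The GC box GGGCGG, sought on both strands, lay in 67.0% of member windows and 35.7% of all. The homeodomain core TAATTA lay in 4.5% against 5.3%, the forkhead motif TGTTTAC in 1.1% against 3.6%, the T-box motif AGGTGTGA in 0 of 88 against 1.3%, and TATAAA in 8.0% against 13.6%.

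Across the 12 Het and KO libraries, PC1 (52.2% of the variance) parted the sexes. On PC2 (14.5%), 4 libraries stood apart at 24.3 to 29.8 and the other 8 lay between -27.9 and -0.99. The 4 were replicate 1 of male Het1, of female Het2 and of KO in each sex. Results are therefore also given without the 2 controls among them and without all 4, alternatives chosen after seeing the data. In every genotype of both sexes replicate 1 lay higher on PC2 than replicate 2, so PC2 also followed the replicate number. What that number stands for is not stated. Setdb1 RNA checked the labels: it was 27.1 and 31.2 RPKM in male KO against 37.5 to 52.0 in male Het, and 31.3 and 34.6 in female KO against 38.2 to 58.9 in female Het. The sum of 12 PGC marker genes was 1184 to 2430 RPKM in these libraries and 17.8 in the soma library. RPKM is reads per kilobase of gene or window, scaled to library size, and the depth behind it is unknown.

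Most members were silent or weakly expressed in PGCs. Averaged over the 12 libraries, 33 of the 104 were below 0.1 RPKM, 31 between 0.1 and 1, 25 between 1 and 10, and 15 at 10 or more. Thus 38.5% of members reached 1 RPKM and 14.4% reached 10, against 55.9% and 30.2% of all 22138 genes. Of the 15 strongest, 11 were Fox genes. Foxo1, a forkhead factor downstream of insulin signalling, led with 37.4 RPKM, ahead of the sine oculis-type homeobox gene Six4 at 36.2, the LIM-homeobox gene Lhx1 at 34.1 and Foxh1, a partner of SMAD proteins in Nodal signalling, at 32.5. Foxn2 (32.5), Foxo3 (28.8), Foxr1 (28.4), the cell-cycle regulator Foxm1 (24.6), Foxn3 (19.4) and Foxk2 (18.9) followed.

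The leading members were not all steady across libraries. Lhx1 was 25.8, 59.1, 42.2 and 55.5 RPKM in male Het1 replicates 1 and 2 and Het2 replicates 1 and 2, and 20.4, 20.2, 12.2 and 21.1 in the same female order. Foxh1 was 11.3, 34.9, 31.9 and 43.1 in male Het and 51.5, 30.3, 22.3 and 52.9 in female Het. In both genes the lowest male value was Het1 replicate 1 and the lowest female value Het2 replicate 1, which are the 2 controls that stood apart on PC2. Foxo1 varied less, from 36.2 to 52.8 in male Het and 23.7 to 37.4 in female Het, and the neighbours Foxo1 and Six4 in the order of means overlapped in both sexes.

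The families differed in how many members were on. Of the Six-family genes 4 of 6 were at 1 RPKM or more, with a median of 5.31, and the Irx family 4 of 6 with a median of 1.80. Of 42 Fox genes, 20 reached 1 RPKM. The Pax family had the lowest median, 0.035 RPKM, with 6 of 9 below 0.1, and its strongest member, Pax8, averaged 13.1. In the Tbx family 7 of 13 were below 0.1, while Tbx4, known for hindlimb and lung development, averaged 11.6. Dlx3 led the Dlx family at 7.28, Irx3 its family at 3.50 and Nkx6-2 the Nkx family at 3.15. Close paralogs near each other could differ: of the neighbouring genes Six6 averaged 0.028 RPKM and Six4 36.2.

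H3K27me3 at promoters, within 1 kb of either side of the start, was high over most members. The median member was at 1.45 RPKM in male Het, 1.42 in male KO, 1.203 in female Het and 0.96 in female KO, between 3.56 and 5.71 times the median of all promoters in the same library. In all 4 libraries 48 of 104 members (46.2%) reached 1 RPKM, against 4.21% of all promoters (931 of 22138). Lhx5, a LIM-homeobox gene of the forebrain, was highest, with 2.37, 2.70, 2.39 and 1.91 RPKM in male Het, male KO, female Het and female KO. Nkx2-3, a regulator of spleen and gut vasculature, had 2.46, 2.36, 1.97 and 1.82, and Pax3, a neural crest and muscle regulator, 2.04, 2.48, 1.97 and 1.92. Pax5, Pax9, Nkx2-6, Pax1, Nkx1-1, Foxb1 and Nkx2-1 completed the 10 highest, with means of 1.95 to 2.06. At the other end were Foxj3 (0.080), Foxo3 (0.093), Six4 (0.116), Tbx6 (0.122), Foxm1 (0.124), Foxk2 (0.147), Foxn2 (0.167), Foxk1 (0.170), Foxr2 (0.205) and Six5 (0.226). Foxr2 and Tbx6 averaged below 1 RPKM of RNA, and the other 8 between 7.30 and 36.2.

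**Figure D1:**
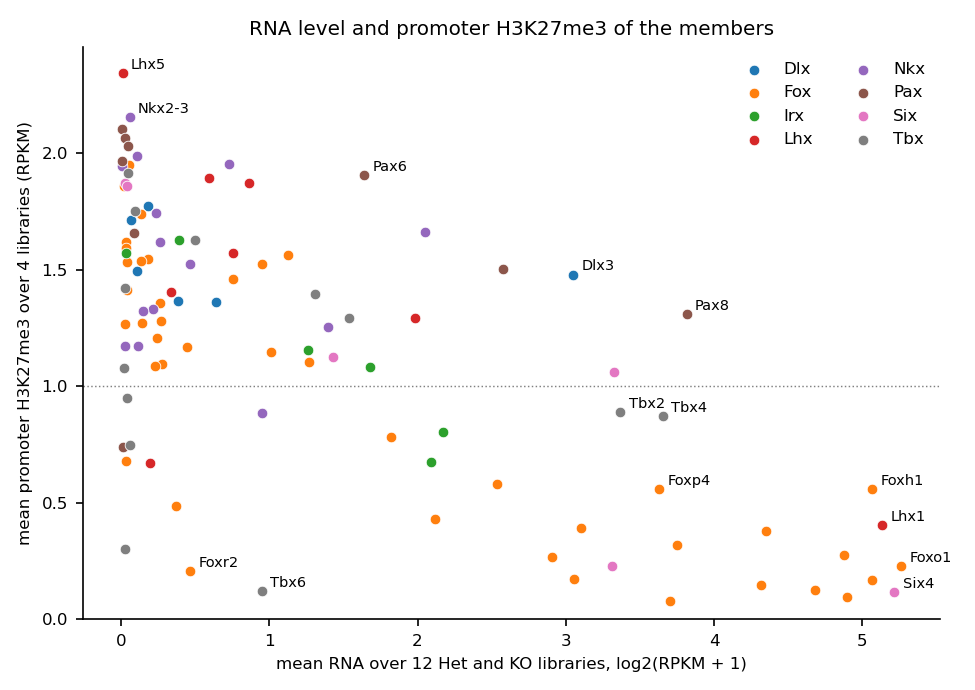
Mean RNA over the 12 Het and KO libraries on the x axis, as log2(RPKM + 1), and mean promoter H3K27me3 over the 4 Het and KO libraries on the y axis, in RPKM, for each of the 104 members (1 point each, coloured by family; dotted line at 1 RPKM). Members with much RNA lie low, Six4 at 0.116 RPKM of H3K27me3, and silent ones mostly high, Lhx5 at 2.34.

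H3K27me3 and RNA ran in opposite directions across members. Of the 33 members below 0.1 RPKM of RNA, 23 were marked (1 RPKM of H3K27me3 or more in all 4 libraries), as were 18 of the 31 between 0.1 and 1, 7 of the 25 between 1 and 10 and 0 of the 15 at 10 or more. Over all genes the marked share was 5.6%, 11.3%, 2.7% and 0.3% in the same 4 classes. Across the 104 members Spearman's rho between RNA and H3K27me3 was -0.64 in male Het and -0.60 in female Het, and across all genes -0.34 and -0.31. These correlations run over genes, which are not independent replicates, and the values come from single ChIP libraries. The 7 marked members with RNA of 1 RPKM or more included Pax6, Nkx6-2, Foxi3, Tbx3, Lhx2 and Tbx1. Dlx3 and Pax8 were not marked by that rule, falling below 1 RPKM in female KO alone. Pax8 had 13.1 RPKM of RNA and 1.62, 1.28, 1.38 and 0.95 RPKM of H3K27me3 in male Het, male KO, female Het and female KO. Dlx3 had 1.72, 1.91, 1.36 and 0.927 RPKM of H3K27me3 in the same order. Its RNA came mainly from females, with means of 0.24 RPKM in male Het and 16.9 in female Het. Whether single cells hold both cannot be read from pooled cells.

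By family, 10 of 14 Nkx, 6 of 9 Pax and 5 of 8 Lhx promoters were marked, against 15 of 42 Fox, 5 of 13 Tbx, 3 of 6 Dlx, 2 of 6 Irx and 2 of 6 Six-family promoters. Members below 0.1 RPKM of RNA that were not marked by this rule included Tbx22 (mean H3K27me3 0.299 RPKM) and Foxn1 (0.680). Among all promoters these means stood at percentiles 53.6 and 81.4. Among the 61 members with 1 promoter window, Spearman's rho between CpG count and mean H3K27me3 was -0.15, close to the -0.14 over 12290 genes. Within CpG-rich windows, the 24 members below 1 RPKM of RNA had a median of 1.41 RPKM of H3K27me3 and the 15 at 1 or more a median of 0.558. The same medians over all genes with CpG-rich windows were 0.967 and 0.170.

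Between KO and Het, H3K27me3 at the members stayed within the 2-fold rule. That rule asks for a ratio of (RPKM + 0.1) of 2 or more in the same direction in both sexes, with the larger value of each pair at 1 RPKM or more. No member among 67 measured met it, against a background of 0.0556% (1 of 1800 promoters). With 1 library per sex and genotype the differences have no replicate check. In males the members' median log2 ratio was 0.07 (all measured promoters 0.02) and in females -0.21 (all -0.27), so the lower female KO values were shared with other promoters. Members below 1 RPKM in at least 1 pair were further apart in places. Foxp4 had 0.825 RPKM in male Het and 0.461 in male KO, and 0.663 and 0.283 in females, ratios of 0.61 and 0.50. Tbx2 had 1.34 and 0.779 in males and 0.859 and 0.569 in females, ratios of 0.61 and 0.70. Six5 had 0.307 and 0.083, then 0.365 and 0.148, ratios of 0.45 and 0.53. These were the 3 members of 104 with a ratio under 0.75 in both sexes, a threshold chosen after their values were seen, against 5.9% of all promoters. In the other direction Tbx4 was 2.20 times and Foxh1 2.33 times as high in male KO, but 1.15 and 0.80 times in female KO.

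**Figure D2:**
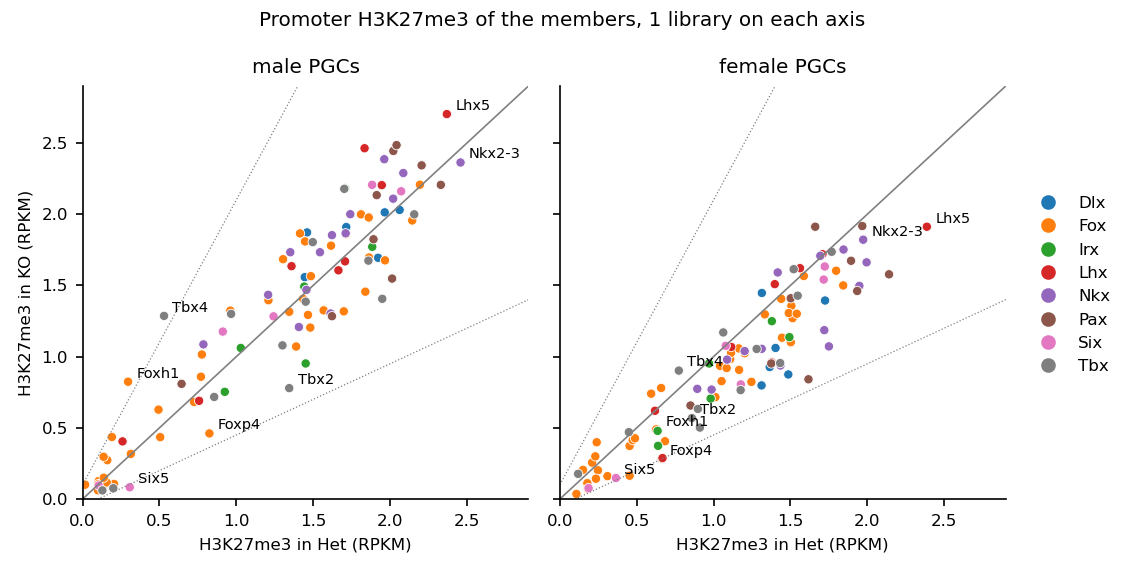
Promoter H3K27me3 in Het (x axis) and KO (y axis) in RPKM for the 104 members, males left and females right, coloured by family; the solid line marks equal values and the dotted lines a 2-fold ratio after adding 0.1. The points follow the solid line in males and lie mostly below it in females, with Foxp4 at 0.663 in Het and 0.283 in KO.

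H3K9me3 was below 1 RPKM at most members, yet mostly higher than at the median promoter, and it followed H3K27me3. In male Het 7.7% of members reached 1 RPKM, against 1.3% of all promoters, and in male KO 15.4% against 1.5%. The shares were 3.8% against 1.3% in female Het and 0% against 0.7% in female KO. The median member was at 0.486 RPKM in male Het, 0.60 in male KO, 0.463 in female Het and 0.342 in female KO, where all promoters had medians of 0.127, 0.136, 0.179 and 0.149. Across members Spearman's rho between H3K9me3 and H3K27me3 was 0.88 in male Het and 0.83 in female Het, and across all promoters 0.72 and 0.70. Lhx5 was the highest for H3K9me3 (mean 1.13 RPKM), as for H3K27me3. Six3, Pax1, Pax9, Dlx1, Pax5, Pax6, Nkx2-3 and Nkx2-1, with means of 0.916 to 1.04, were also among the 18 highest for H3K27me3. Tbx19, a pituitary T-box gene with RNA at or below 0.09 RPKM in the cross libraries, was the exception: second in H3K9me3 (mean 1.12) and 69th in H3K27me3 (1.08).

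Tbx19 was also the member whose H3K9me3 came closest to the 2-fold rule between KO and Het. It had 1.79 RPKM in male Het and 0.571 in male KO, and 1.45 in female Het and 0.685 in female KO, ratios of 0.36 and 0.51. Only 4 members reached 1 RPKM in 1 library of each pair, and 0 of them met the rule, against a background of 7.56% (18 of 238 promoters). At 1.5-fold Tbx19 alone met it. Its RNA was 0.05 and 0.03 RPKM in male KO and 0 in both female KO libraries. Lhx5 had 1.27 and 0.565 in female Het and KO, a ratio of 0.48, and 1.52 and 1.15 in males, a ratio of 0.77.

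RNA of few members differed between KO and Het. Of the 104 members 48 reached 1 RPKM in at least 2 of the 12 libraries and were tested, Lhx9 and Nkx1-1 passing only through KO libraries, with limma over all 13518 genes that passed. In males 1 member was called at an adjusted p under 0.05, against 0.614% of all genes. In females 1 was called, Foxp4, against 0.407%, and over both sexes again Foxp4, against 1.04%. At an unadjusted p under 0.05 there were 3, 9 and 11 of 48 members, where all genes gave 4.55%, 12.4% and 12.6%. The members' median log2 difference was 0.01 in males, 0.00 in females and -0.01 over both, against 0.03, 0.07 and 0.05 over all genes.

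Foxp4, a forkhead repressor, was 13.54, 12.72, 14.08 and 15.90 RPKM in male Het and 20.06 and 16.69 in male KO. In females it was 6.04, 4.64, 5.46 and 4.11 in Het and 10.7 and 12.6 in KO. All KO values lay above all Het values of their sex. In females it rose by 1.07 on the log2(RPKM + 1) scale (SE 0.18, limma, adjusted p = 0.0219), and over both sexes by 0.72 (SE 0.13, adjusted p = 0.0132). The male difference of 0.36 (SE 0.18) had an adjusted p of 1. Over both sexes the call was lost with either Het genotype alone as control (limma adjusted p = 0.168 and 0.118) and without any 1 of the 4 KO libraries (limma adjusted p = 0.0518 to 0.147). The female call was lost without female Het1 replicate 2 (limma adjusted p = 0.0759), Het2 replicate 2 (0.0692) or either female KO library (0.187 and 0.294), after median centring (0.0587) or quantile normalization (0.0614), and with Het1 or Het2 alone as control (0.308 and 0.0994).

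In the male KO libraries, 5 of 6 Leydig cell markers were above all male Het libraries, their sum being 27.5 and 59.8 RPKM against 4.34 to 7.58. Over all 6 markers 4 passed the test in males, 3 of which entered it only through the KO libraries where they are high, so their count is a description. No marker of that list was at 0 in all libraries of a group. In C57BL/6 male soma these markers summed to 752 RPKM. In the female libraries the Leydig sum was 5.98 to 12.4 in Het and 5.90 to 7.39 in KO. The part of these cells' RNA in the male comparison was not tested.

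Tbx2 and Six5 were the other members above all Het libraries in both sexes (3 of 48 in all, against 3.06% of genes tested). Tbx2, a T-box repressor, was 3.39, 9.21, 5.25 and 8.01 RPKM in male Het, 10.50 and 10.03 in male KO, 10.87, 6.63, 9.06 and 5.40 in female Het, and 20.02 and 13.54 in female KO. Over both sexes its log2 difference was 0.83 (SE 0.23, limma, adjusted p = 0.134). Six5 was 3.75 to 4.91 in male Het, 5.08 and 5.10 in male KO, 9.90 to 14.1 in female Het, and 17.8 and 15.2 in female KO, a log2 difference of 0.32 (SE 0.13, limma, adjusted p = 0.289). In the male WT library Six5 was 5.59, above both male KO values. Foxp4, Tbx2 and Six5 were all higher in soma than in PGCs of C57BL/6 males, at 49.2 against 19.9, 137 against 3.33 and 48.8 against 4.46 RPKM. The sum of 8 interstitial and stromal markers, members left out, was 13.6 to 26.5 in male Het and 26.7 to 30.5 in male KO, and 14.4 to 30.9 in female Het and 34.4 to 46.3 in female KO. In males 4 of these 8 and in females 3 of 8 were above all Het libraries, 0 of the 7 tested passed by limma in either sex (2 in each sex at an unadjusted p under 0.05), and none was at 0 in all libraries of a group. Sums of PGC, pregranulosa and Sertoli markers differed in females as well, while those of 3 other lists overlapped. Endothelial markers summed to 18.9 to 67.9 RPKM in female Het and 30.3 to 38.1 in female KO. Macrophage markers summed to 4.83 to 8.08 and 4.39 to 9.59, and erythroid markers to 1.78 to 260.6 and 2.19 to 46.2. The 12 PGC markers summed to 1622 to 1937 RPKM in female Het and 1184 to 1463 in female KO, with 2 of 12 below all Het libraries and 0 above (Nanos2 was at 0 in all female Het libraries). The 5 pregranulosa markers that are not members summed to 6.98 to 12.8 and 16.6 to 18.2, with 2 of 5 above, and the 8 Sertoli markers to 78.4 to 106.7 and 113.3 to 119.6, with 3 of 8 above and 1 below. By limma 0 of the 12, 5 and 7 tested passed in females, with 2 of each list at an unadjusted p under 0.05. In males 0 genes of the PGC, pregranulosa and Sertoli lists had both KO libraries above, or both below, all Het libraries. The part of soma RNA in these members' KO values was not tested.

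**Figure D3:**
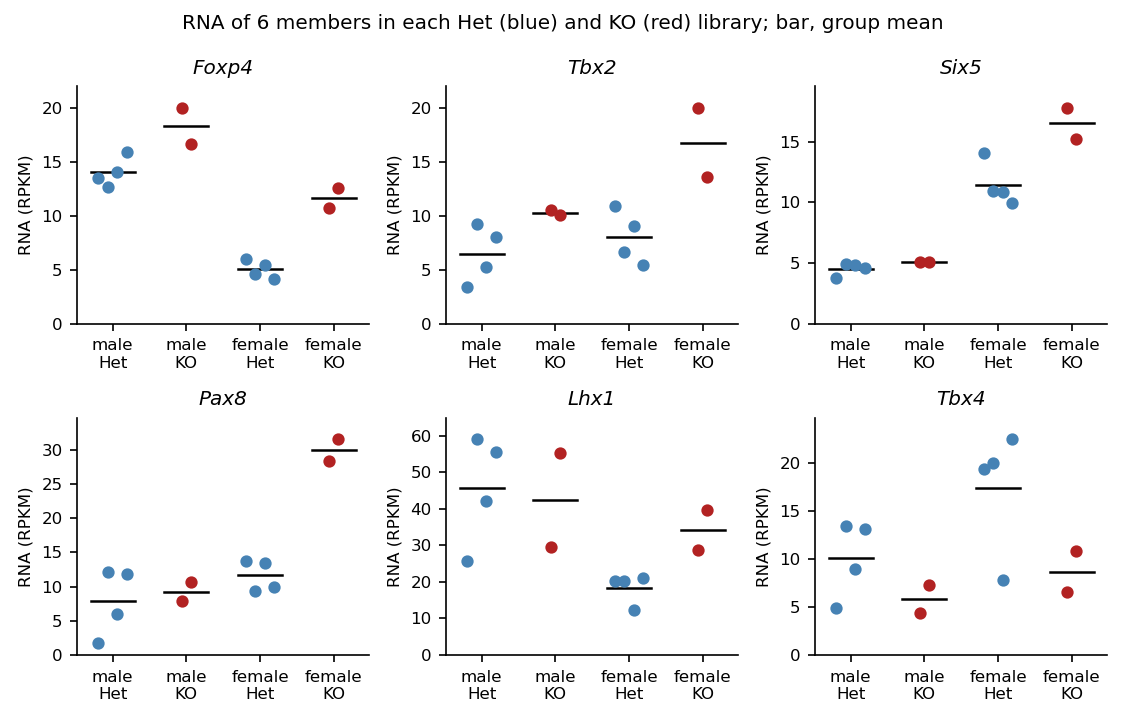
RNA in RPKM (y axis, from 0) of 6 members in each library of the 4 groups on the x axis: Het in blue (n = 4 per sex), KO in red (n = 2 per sex), bars at the group means. Foxp4, Tbx2 and Six5 are higher in all KO libraries of both sexes, and Pax8 and Lhx1 in female KO, while Tbx4 in male KO (4.41 and 7.25) lies within or below the Het values.

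Further members were higher in female KO without passing the test. Pax8, a paired-box gene of thyroid and kidney, was 13.74, 9.35, 13.47 and 10.01 RPKM in female Het and 28.3 and 31.6 in KO (log2 difference 1.31, SE 0.48, limma, adjusted p = 0.287). Pax2, its close relative, was 5.32, 4.64, 3.47 and 4.04 in Het and 12.04 and 13.15 in KO (1.35, SE 0.47, limma, adjusted p = 0.264). Lhx1 was 28.7 and 39.8 in female KO, above the Het values given earlier (0.87, SE 0.34, limma, adjusted p = 0.308). Irx1 (log2 difference 1.01) was also above all female Het libraries, whereas Foxj1, a regulator of motile cilia (1.01), overlapped them, at 3.58 and 2.57 in KO against 0.16 to 3.01 in Het. In the female WT library, which stayed outside the fit, Pax8 was 21.5, Pax2 9.27 and Lhx1 37.4, each above all 4 Het libraries, and Lhx1 was within the KO range. In males the Pax8 values were 1.75, 12.2, 6.01 and 11.8 in Het and 7.87 and 10.7 in KO, and Lhx1 was 29.5 and 55.2 in KO, both within the Het range. Pax8, Pax2 and Lhx1 also mark coelomic and mesonephric epithelium. The other 4 markers of that list summed to 22.6 to 39.6 in female Het and 47.0 to 69.9 in female KO, with 1 of 4 (Emx2) above all Het libraries, and to 15.4 to 31.5 in male Het and 45.8 to 53.2 in male KO, with 3 of 4 above. None of the 4 passed by limma in either sex (3 in males and 0 in females at an unadjusted p under 0.05), and their part in these values was not tested. In C57BL/6 males Pax8 was 1.39 RPKM in soma and 2.08 in PGCs, Pax2 0.04 and 0.86, and Lhx1 0.27 and 49.1. In the male WT PGC library Pax8 was 16.85, Pax2 4.77 and Lhx1 60.3. The soma library differs from the female KO libraries in sex and is not from the Setdb1 cross, and female soma was not measured.

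Without male Het1 replicate 1 and female Het2 replicate 1 together, 7 members passed in females: Foxp4, Foxj1, Pax2 and Pax8 higher, and Foxr1, Six4 and Tbx4 lower. Over both sexes 5 then passed, among them Foxp4 and Foxj1 higher and Foxr1 and Tbx4 lower. KO replicate 1 of each sex, which stood apart on PC2 too, stays in that fit, so the genotype and the PC2 difference cannot be told apart there. Without all 4 libraries that stood apart, which leaves 1 KO library per sex, assumed to vary like the other groups, 0 of 47 members passed by limma in males, in females or over both sexes, with 4, 11 and 11 at an unadjusted p under 0.05. Foxp4 was then at 1.21 in females (SE 0.23, limma, adjusted p = 0.180) and 0.72 over both (adjusted p = 0.202). In the full fit the lower members were led by Tbx1, a T-box gene of the pharyngeal arches, at 0.75, 1.32, 1.02 and 0.98 RPKM in male Het, 0.48 and 0.17 in male KO, 3.56, 2.44, 3.49 and 4.30 in female Het, and 2.60 and 1.70 in female KO. Its log2 difference over both sexes was -0.55 (SE 0.16, limma, adjusted p = 0.152). Tbx4 was 4.92, 13.4, 8.99 and 13.1 in male Het, 4.41 and 7.25 in male KO, 19.4, 19.9, 7.80 and 22.5 in female Het, and 6.58 and 10.8 in female KO (-0.76, SE 0.30, limma, adjusted p = 0.297). Its lowest Het value in each sex was the control that stood apart on PC2. Foxc1 (0.60, SE 0.25, adjusted p = 1), Lhx9 (0.48) and Lhx8 (-0.35) were among the members with the smallest p in males, limma passing none of these.

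By order alone, 7 of 48 members were above all Het libraries in male KO and 3 below, against 9.01% and 4.13% of genes tested. The 7 include Lhx9, which entered the tested set only through KO libraries, so their count is a description. In female KO 11 were above and 1 below, against 14.8% and 5.62%. Over both sexes 0 were below, against 0.466%. The KO effect differed between the sexes in 0 of 48 members by limma (7 of 13518 genes, or 0.0518%). An unadjusted p under 0.05 was reached by 3 of the 48, and the smallest member adjusted p was 0.9998.

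Between the sexes, in Het, many members differed. Of the 48 tested 26 had an unadjusted p under 0.05, against 42.8% of all genes, and 22 passed, 14 higher and 8 lower in females, against 31.9% (17.6% higher and 14.3% lower). Dlx3, a homeobox gene of placenta and skin, differed most. It was 0.00, 0.66, 0.13 and 0.16 RPKM in male Het and 7.85, 22.7, 25.5 and 11.5 in female Het, a log2 difference of 3.74 (SE 0.31, limma, adjusted p = 5.9e-06). Its neighbour Dlx4 was 0 to 0.13 in male and 0.74 to 2.05 in female Het (1.05, limma, adjusted p = 0.00136). Irx3, which is also a marker of pregranulosa cells, was 0.29 to 1.52 in male and 3.09 to 7.72 in female Het (1.88, limma, adjusted p = 0.00033). Its relatives Irx2 (1.29) and Irx5 (1.04) were higher in females as well. Foxo6 (1.63), Foxc1 (1.61), Lhx2 (1.37), Foxi3 (1.35), Six5 (1.17) and Tbx1 (1.13) passed too, and in Foxc1 the values were 0.05 to 0.26 in male and 1.42 to 3.94 in female Het. Nkx6-2 (0.76), Foxn2 (0.64) and Foxj3 (0.45) were the smallest of the 14.

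Among the 8 lower in females, Foxp4 led at -1.32 (SE 0.15, limma, adjusted p = 5.8e-05), from the Het values given earlier. Lhx1 differed by -1.22 (limma, adjusted p = 0.00538), Foxj1 by -0.96, Foxr1 by -0.91, Foxp1 by -0.82, Foxo4 by -0.72, Six4 by -0.62 and Foxo1 by -0.56. No Pax gene passed in this comparison. With the same 4 libraries per sex, the summed RPKM of the 5 other pregranulosa markers ranged from 10.6 to 12.4 in males and from 6.98 to 12.8 in females. That sum hides opposite differences, as by limma 1 of the 5 was higher and 2 were lower in females. Of 7 Sertoli markers tested 0 were higher and 4 lower in females, against 17.6% and 14.3% of all genes. The part of soma RNA in the members' sex differences was not tested. With Het1 alone as controls 10 members passed this comparison and with Het2 alone 12.

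**Figure D4:**
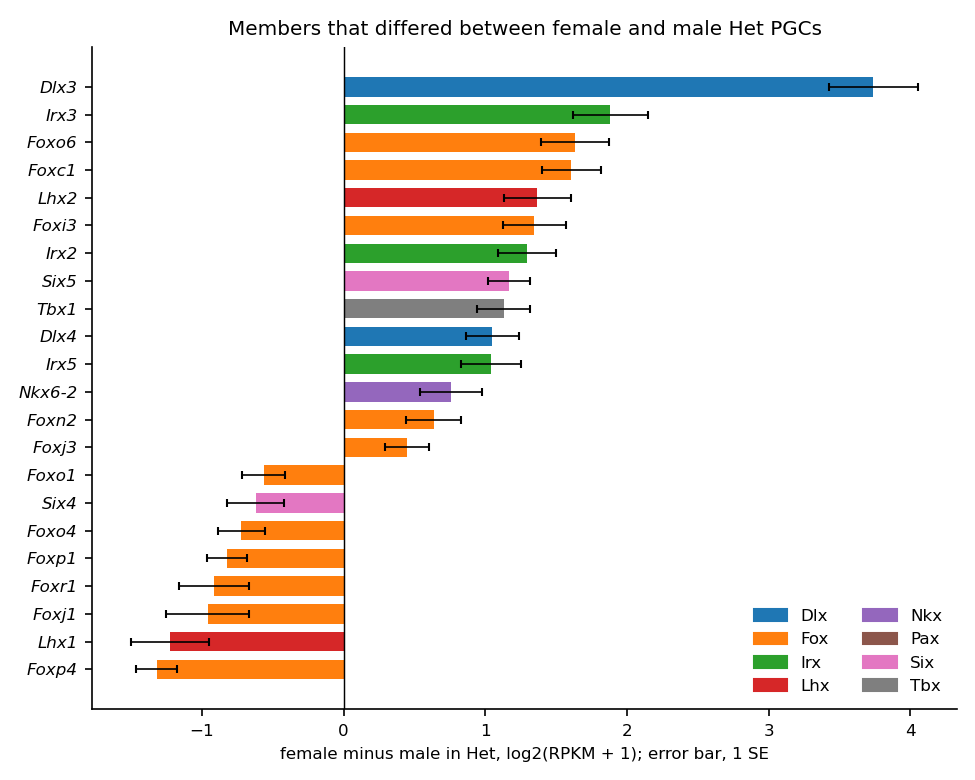
Female minus male difference in Het PGCs, in log2(RPKM + 1) on the x axis, for the 22 members past the threshold (bars, coloured by family; error bars, 1 SE; 4 libraries per sex). Dlx3 stands at 3.74, well beyond Irx3 at 1.88, and Foxp4 is the lowest at -1.32.

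Among the members measured, no sex difference in promoter H3K27me3 met the 2-fold rule. Of 70 members measured 0 were 2-fold apart between female and male in both genotypes, against 0.224% of 2237 promoters. Dlx3 had 1.72 RPKM of H3K27me3 in male Het and 1.36 in female Het, and 1.91 and 0.927 in male and female KO. Foxo4, Foxp3, Foxr2 and Tbx22 lie on the X chromosome, of which females have 1 copy more. All their H3K27me3 values were below 1 RPKM, so they were not among the 70 measured. Their log2 ratios of female to male H3K27me3 in Het were 1.86, 1.56, 0.48 and 0.87, and in KO 1.865, 2.02, 0.678 and 1.695. Foxo4 and Foxp3 were thus more than 2-fold higher in females in both genotypes. H3K9me3 was higher in females at these genes too. Its log2 ratios in Het were 1.90 at Foxo4, 1.98 at Foxp3, 1.14 at Foxr2 and 1.53 at Tbx22, and in KO 1.89, 1.48, 1.305 and 1.52. The median log2 ratio in Het over 642 X-linked promoters was 1.15 for H3K27me3 and 1.45 for H3K9me3. Over 14160 autosomal promoters it was 0.02 and 0.20. Foxo4 RNA was 13.2 to 19.6 in male and 6.47 to 9.97 in female Het, while Foxp3 RNA overlapped between the sexes (2.69 to 5.84 and 1.78 to 3.88).

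Soma and PGCs of C57BL/6 males, with 1 RNA library each and no replicate check, expressed different members. Of 38 members measured (1 RPKM or more in the higher library), 14 were 2-fold higher in soma after adding 1 RPKM and 10 in PGCs, with 14 in neither class. The background was 28.7% higher in soma and 17.6% higher in PGCs. The soma-high members were Tbx2 (137 RPKM in soma, 3.33 in PGCs), Tbx3 (43.8 and 0.44), Lhx9 (28.4 and 0.19), Six5 (48.8 and 4.46), Foxs1 (12.04 and 0.13), Foxc1 (10.97 and 0.35), Foxc2 (6.48 and 0.03), Foxp2 (4.11 and 0.16), Foxd1 (4.41 and 0.29), Foxd2 (2.28 and 0.08), Foxn3 (61.83 and 20.02), Foxo6 (7.81 and 2.05), Foxp4 (49.2 and 19.9) and Dlx5 (1.09 and 0). Several of them, such as Tbx2, Tbx3, Foxc1 and Foxd1, are known from mesenchyme. The PGC-high members included Lhx1 (49.1 in PGCs, 0.27 in soma), Foxh1 (41.6 and 0.20), Foxr1 (36.0 and 0.13), Tbx4 (14.0 and 0.24), Six4 (63.8 and 6.14), Foxn2 (30.1 and 10.3), Foxo1 (53.1 and 19.7), Six2 (1.71 and 0.06) and Irx2 (1.29 and 0.07). Foxl2 was at 0.85 in this male soma, Foxo3 at 48.6 against 40.1, and Foxs1 was at 0 in all 6 female Het and KO libraries. In bulk samples, fewer cells of a type and less RNA per cell cannot be told apart.

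**Figure D5:**
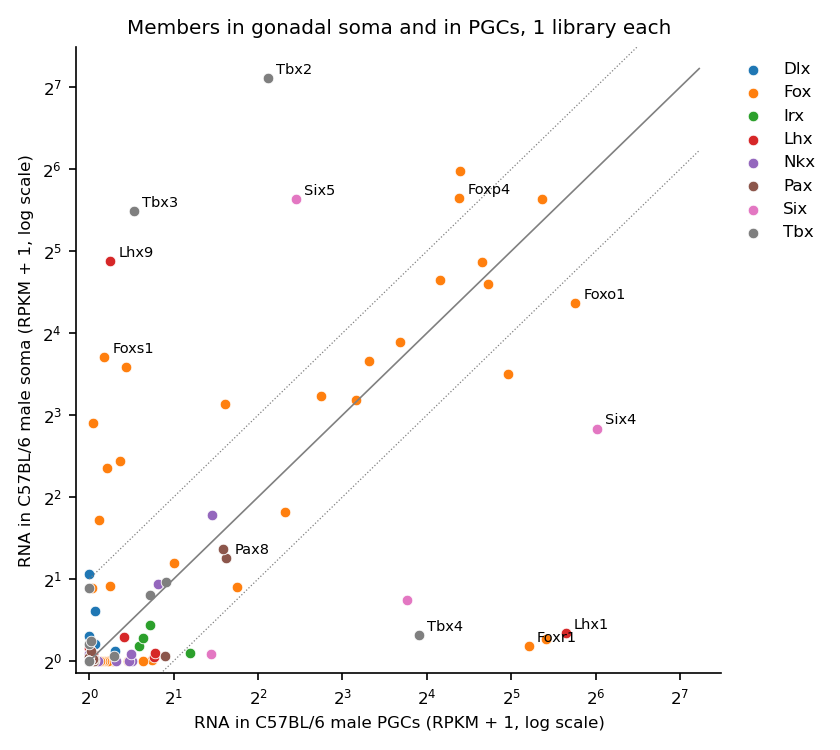
RNA of the 104 members in C57BL/6 male PGCs (x axis) and soma (y axis), as RPKM + 1 on log scales, 1 library each; the solid line marks equal values, the dotted lines 2-fold. Tbx2, Tbx3, Lhx9 and Six5 lie far above the line (137, 43.8, 28.4 and 48.8 RPKM in soma) and Lhx1, Foxr1 and Tbx4 far below it.

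H3K9me3 in soma could be compared with male Het PGCs only on a scale that decides the direction. The median of all promoters was 0.721 RPKM in soma and 0.127 in PGCs, and 81.9% of measured promoters were 2-fold apart, 79.4% higher in soma and 2.44% lower. Of 50 members measured 20 were higher in soma and 1, Tbx19 (0.634 in soma, 1.79 in PGCs), lower. After each library was divided by its median, 2 were higher and 36 lower. The median member stood at 1.36 times the library median in soma and 3.83 times in male Het PGCs.

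The partners of these factors were read from a list of 29 cofactors (Eya, Dach, Ldb, Lmo, Pbx, Meis, Tle and others), of which 27 were tested. None passed between KO and Het by limma in males, in females or over both sexes, with 2, 10 and 9 of the 27 at an unadjusted p under 0.05, against 4.55%, 12.4% and 12.6% of all genes. Between the sexes in Het 9 of the 27 passed, against 31.9% of all genes. Hand1 (2.80), Tle6 (1.30), Lmo4 (1.15), Lmo2 (0.64) and Pbx2 (0.58) were higher in females, and Lmo1 (-1.97), Eya2 (-1.30), Tle4 (-0.56) and Eya3 (-0.45) lower. Lmo1, a LIM-only protein, was 17.7 to 29.9 RPKM in male and 3.96 to 7.64 in female Het, and Eya2, a coactivator recruited by Six-type factors, 3.41 to 4.78 and 1.00 to 1.23. Of 30 Polycomb genes 1 passed between KO and Het over both sexes, against 1.04% of all genes: Phf19, a PRC2 accessory subunit, fell by 0.53 (SE 0.11, limma, adjusted p = 0.0386). It was 7.39 to 9.28 RPKM in male Het, 7.24 and 5.02 in male KO, 50.7 to 58.6 in female Het, and 35.5 and 36.9 in female KO. Between the sexes 12 of the 30 passed, 9 higher and 3 lower in females, against 31.9%, 17.6% and 14.3% of all genes.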

How the data were processed

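RNA, H3K9me3 and H3K27me3 values are RPKM made by the authors and deposited as 1 table per Ensembl gene and 1 per promoter, within 1 kb of either side of the transcription start, per the file headers and names. The submitters' processing notes name BWA and mm9 for all these libraries and SAMtools for RNA. Versions, counter and scaling total: not given in the sources used here. RNA and ChIP depth is unknown, so no counting intervals are given. RNA was tested as log2(RPKM + 1) with limma 3.58.1 (lmFit, eBayes with trend) in R 4.3.3, for genes at RPKM 1 or more in at least 2 of the 12 Het and KO libraries, in 1 fit of 4 group means. Tests were two-sided, adjusted by Benjamini-Hochberg over all 13518 genes, at 0.05. The fit was also run on simulated data with independent noise, equal KO effects in both sexes and no filter on low values. That run checked only the contrast over both sexes. It held no deviations shared by replicate number, so it cannot speak for the other contrasts or for such deviations. Fold changes on this scale understate the change of low genes. Single ChIP libraries and the soma and PGC RNA libraries were compared by a 2-fold rule with no p, at 1 RPKM or more, after adding 0.1 (ChIP) or 1 (RNA).

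Members were named where they passed a contrast or had the smallest p up to 8 per KO contrast, and for the highest RNA, the largest soma and PGC differences and the highest or lowest marks. The members and lists were chosen with earlier results of these data known. Leaving out single libraries, other scalings, filters, pseudocounts, controls and a replicate block were tried. WT libraries stayed outside the main fit. DNA methylation, total H3 and repeat families are not analysed here. Some members' own values are not reported here, though all members enter the counts and medians.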

Additional observations from a re-analysis of the deposited data

Results flagged for a closer look

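In the Het groups of 4 libraries, 35 members were checked for a library far from the other 3 by Dixon's ratio at its 95% critical value, in 70 groups of values. Chance flags about 1 in 20 groups, and 3 of the 70 were flagged here. Foxo4 was 19.6 RPKM in male Het1 replicate 1, against 13.2 to 13.9 in the other male Het libraries. Irx1 was 3.15 RPKM in female Het1 replicate 1, against 1.54 to 1.69 in the others. Lhx1 was 12.2 RPKM in female Het2 replicate 1, against 20.2 to 21.1 in the others. Male Het1 replicate 1 and female Het2 replicate 1 are the controls that stood apart on PC2.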

How the results depend on the processing

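The count of members called between KO and Het was 1 in males, 1 in females (Foxp4) and 1 over both sexes (Foxp4). In males it was 0 after centring on medians, quantile normalization, a pseudocount of 0.1, and with Het1 or Het2 alone as controls. In females it was 0 with median centring, quantile normalization, and Het1 or Het2 alone. Over both sexes it was 2 with quantile normalization, 2 with WT added to the controls, and 0 with Het1 or Het2 alone. Leaving out each library in turn gave 0 to 1 in males, 0 to 2 in females, 0 to 2 over both sexes, 0 to 0 for the difference between the sexes, and 17 to 22 for female minus male in Het. Without the 2 controls that stood apart the counts were 1, 7 and 5 in males, in females and over both sexes. Without all 4 libraries that stood apart they were 0, 0 and 0. The female minus male count of 22 was 10 with Het1 alone and 12 with Het2 alone, which leave 2 controls per sex. Deviations of same-numbered Het and KO libraries of a sex were positively correlated in all 8 pairs (0.083 to 0.558). The 8 pairs with unlike numbers gave the same sizes with a negative sign, since each KO group has only 2 libraries. What the replicate number stands for is not stated, so the main fit did not pair libraries. With a replicate block the counts were 1 in males, 1 in females, 2 over both sexes, 0 for the difference between the sexes and 24 for female minus male. For H3K9me3 between KO and Het, 1.5-fold gave 1 member. For H3K27me3 between the sexes, 1.5-fold gave 1 (Irx3) and a level of 0.5 RPKM gave 1 (Foxp3). The 21 members 2-fold apart in H3K9me3 between soma and PGCs became 2 with a pseudocount of 1, 36 at 1.5-fold, 5 at 3-fold, 41 at a level of 0.5 RPKM and 38 after division by the library median. No member reached a level of 2 RPKM in H3K9me3, so that alternative gave no value. Over 54 single-member values and 1289 alternatives, 0 reversed direction, 87 lost the threshold and 12 crossed it. Where not stated otherwise, the cause of these changes was not tested.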
